A study of Arabidopsis thaliana with 24 samples.

Results

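Transcripts of Arabidopsis thaliana seedlings of the mutant ino80-5, called ino80 here, were compared with those of wild-type seedlings of the ecotype Columbia (Col) at 21 °C. The comparison rests on 6 of the 24 RNA-seq libraries of the series, 3 of ino80 and 3 of Col, taken as those labelled 21 °C and 1 h. Both genotypes carry the Col background and were grown for 7 days at 21 °C in short days, and then kept at 21 °C for 1 h more. They are thus the unwarmed controls of a study of thermomorphogenesis, the elongation growth that mild warmth brings about. RNA came from whole seedlings, so fewer cells of a type and less RNA per cell cannot be told apart. The labels name the allele and do not describe the lesion. The p-values and standard errors (SE) of this comparison rest on the spread between replicates in all 12 libraries of 1 h. These include the warmed ones. Nothing in the labels ties the replicates to separate plates or batches of plants, so that spread may be technical.

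INO80 is the ATPase of a large complex that slides nucleosomes and edits their H2A.Z content. In plants the complex is known for roles in flowering time, in light and temperature responses, and in repair of broken DNA. The related SWR1 complex puts H2A.Z into nucleosomes, and INO80 is tied to its removal.

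INO80 (AT3G57300) held 13.1, 14.8 and 12.6 TPM (transcript levels scaled to a fixed total in each library) in the ino80 libraries and 17, 20.3 and 18.7 TPM in the Col libraries. The mutant libraries all lay below the Col libraries, at 72.4% of the Col mean, and transcript of the gene was present in each of them (log2 difference -0.44 ± 0.08, adjusted p = 0.00078). Here and below, a log2 difference is ino80 minus Col on the log2(TPM + 1) scale ± SE with n = 3 per genotype, which understates the change of low genes. Each adjusted p is two-sided, from limma with Benjamini-Hochberg adjustment over the 19190 genes tested. Genes with an adjusted p under 0.05 are called higher or lower. Of the neighbours of INO80 that were tested, EIF3E, a translation initiation factor subunit, was lower (-0.22 ± 0.05, and -0.14 without Col replicate 2), as was AT3G57320 (-0.48 ± 0.12), which overlaps the uncalled ACA11. Where a gene overlaps another, reads of the pair cannot be told apart here, since the strand setting of the counting is not stated. The other 4 tested neighbours had differences of -0.13 to 0.23 and were not called.

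From the steps between their lowest values, the libraries held an estimated 17700000 to 22600000 fragments for ino80 and 13000000 to 21500000 for Col, where Col replicate 2 was the shallowest. A single fragment in a gene of 1 kb stood for 0.0755 to 0.0935 TPM in ino80 and 0.0775 to 0.13 TPM in Col. Replicates correlated at r = 0.99 to 0.9953 across genes, which are not independent replicates.

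The genotypes differed in many genes by small amounts. Of the 19190 tested genes 6880 (35.9%) were called, 2950 (15.4%) higher and 3930 (20.5%) lower in ino80. With the 2 groups alone in the fit, 2467 were higher and 3302 lower. In 8532 genes (44.5%) the 3 ino80 libraries lay all above or all below the 3 Col libraries. The median log2 difference of all tested genes was -0.03, and 65.9% of the called genes differed by under 0.5. By more than 1 log2 unit 179 genes were higher and 246 lower, and by more than 2 units 21 were higher and 16 lower. The share of higher genes among the calls was 42.9%, and became 50.2% with median-of-ratios scaling (3633 higher, 3602 lower). It was 50.4% after quantile normalization (3669 higher, 3608 lower), and leaving out Col replicate 2 also gave 50.4% (3330 higher, 3282 lower).

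The largest increases included genes of defence and of the seed. The mannose-binding lectin gene AT1G52000 held 40, 40 and 35.4 TPM in ino80 and 0.922, 1.24 and 1.87 TPM in Col (4.09 ± 0.14, adjusted p = 2e-11). The allene oxide cyclase AOC2, an enzyme of jasmonate synthesis, held 85.1, 90.1 and 88.7 TPM in ino80 against 11.1, 9.58 and 10.6 TPM in Col (2.96 ± 0.08). ECS1, the most abundant of the 15 genes with the largest increases, held 590, 428 and 578 TPM in ino80 against 131, 90.1 and 114 TPM in Col (2.24 ± 0.12). In these 3 genes every ino80 library lay well above every Col library. The defensin-type gene LCR67 held 23.5, 14.9 and 17.9 TPM in ino80 and 1.13, 4.33 and 1.44 TPM in Col (2.68 ± 0.37). The transcription factor gene MYB47 was higher by 2.22 ± 0.10, and NAS2, which makes the metal chelator nicotianamine, by 2.06 ± 0.13. AT1G12030, of a family of unknown function, held 12, 11.2 and 12.8 TPM in ino80 against 1.13, 0.631 and 1.01 TPM in Col (2.76 ± 0.13). It was not called at 27 °C (0.29), and the genotype difference itself differed between temperatures (27 °C minus 21 °C -2.47 ± 0.19, adjusted p = 2e-05). Also in this group were AT3G03776, AT5G42530, AT5G39110, AT1G68250, the seed storage genes CRU3, CRA1 and SESA5, and the glycosyl hydrolase GH9B15, which overlaps another gene.

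The largest decreases held several genes that were nearly absent from ino80. AT4G19950 was listed at 0 in all 3 ino80 libraries and at 5.72, 6.59 and 5.66 TPM in Col (adjusted p = 8.5e-10). AT2G40570 held 0.0598, 0.0283 and 0.14 TPM in ino80, about what 1 fragment per kb stands for, and 6.1, 8.57 and 7.48 TPM in Col (-2.95 ± 0.13). The mitochondrial carrier gene AT2G37890 held 0.594, 0.219 and 0.348 TPM in ino80 and 5.94, 8.34 and 7.17 TPM in Col (-2.55 ± 0.14). All 3 were lower by more than 2 log2 units at 27 °C and after 12 h as well. The most abundant of these genes were PnsB1 of the chloroplast NDH complex, with 32.6, 32.5 and 29.1 TPM in ino80 and 149, 138 and 148 TPM in Col (-2.17 ± 0.06; it overlaps another gene), and MLP328, with 25.3, 19.6 and 23.5 TPM in ino80 and 100, 108 and 101 TPM in Col (-2.14 ± 0.09). AT3G24100, ANNAT7 (an annexin), the lipase-like genes AT5G33370 and AT1G51440, AT3G62460, AT1G73250, the F-box type gene AT3G58930 and FLP1 were lower by 1.97 to 2.28. Separate genotypes were a condition for naming the 15 genes at each end, so that they do not overlap in these genes is no result. The list examples below were mostly picked for strong calls, so their separation is no result either.

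**Figure D1:**
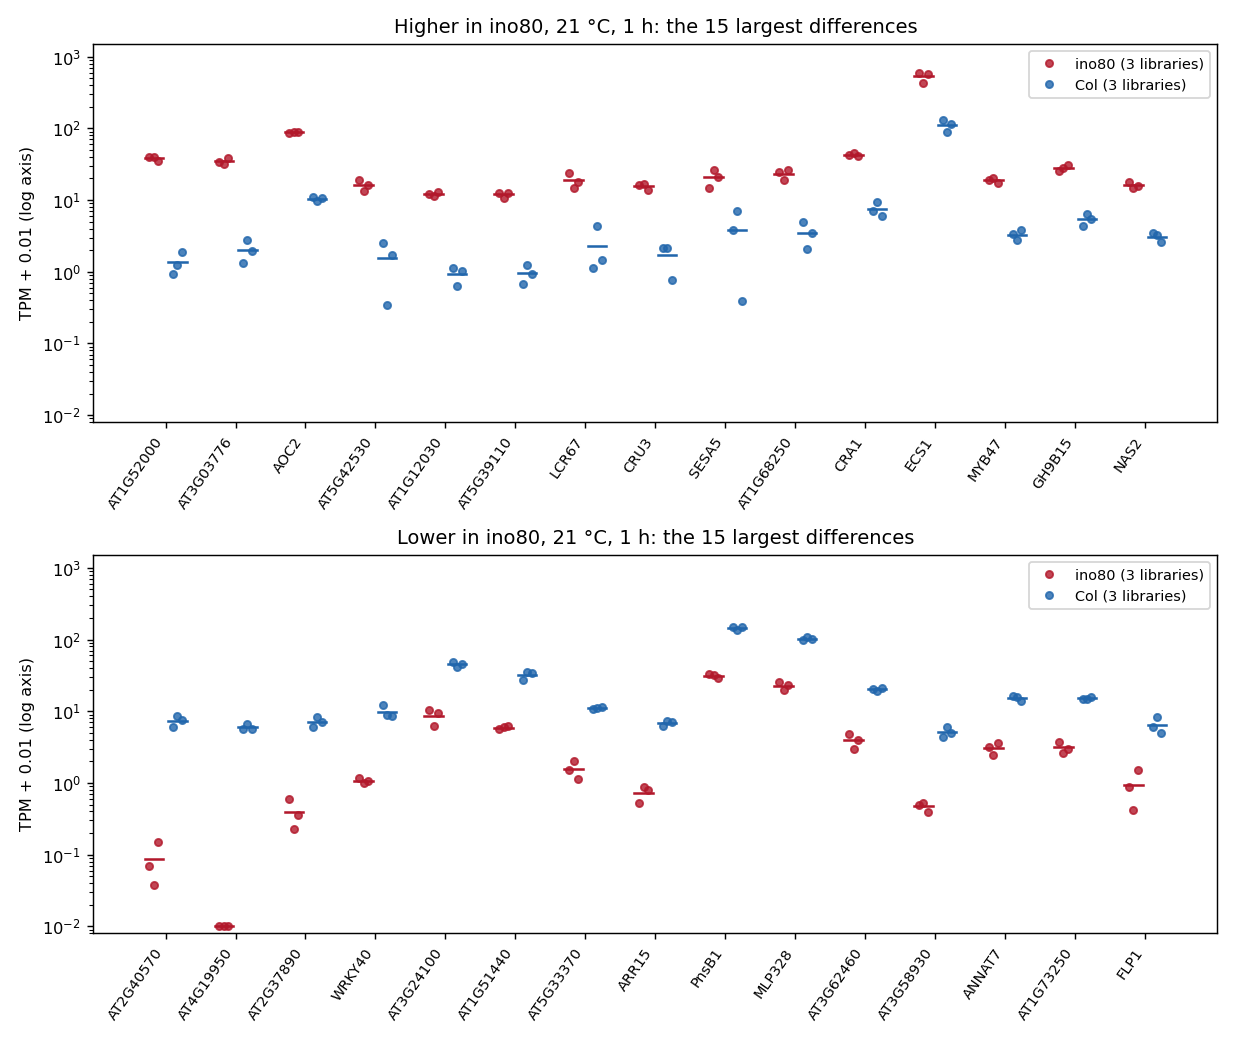
Level of the 15 genes with the largest increases (top) and the 15 with the largest decreases (bottom) in ino80, as TPM + 0.01 on a log axis, with 1 point per library and a bar at the group mean; ino80 is left (red) and Col right (blue). The genes were chosen to have genotypes that do not overlap, and AT4G19950 is listed at 0 in all 3 ino80 libraries.

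The differences were not spread evenly along the genome. At the distal end of chromosome 5, tested genes from UVR8 to AT5G65700 (TAIR10.1, chr5:25554416-26285413, 0.731 Mb) were mostly a little higher in ino80. This stretch was picked after its values were seen, as the span of the 8 runs of at least 5 neighbouring higher genes on that chromosome arm, so it is described with no test. Of its 180 tested genes 126 (70.0%) were higher and 7 lower, against 14.9% higher among the other 19010 tested genes. The median log2 difference was 0.40 (quartiles 0.22 and 0.54) within it and -0.03 outside. The longest run, from UVR8 to AT5G64090, held 24 higher genes in a row, while the 15 runs found elsewhere in the genome were of 5 or 6 genes.

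Each library showed the shift. Over the stretch, the median difference from the Col mean was 0.40, 0.42 and 0.38 in the ino80 libraries and -0.04, 0.07 and -0.01 in the Col libraries. The summed level of the 180 genes was 12040, 11846 and 11906 TPM in ino80 against 9226, 9578 and 9398 TPM in Col. For the 139 genes with a mean TPM of at least 5, the ratio of ino80 to Col had a median of 1.37 with quartiles of 1.25 and 1.49, against a median of 0.981 elsewhere. Of the 25 tested genes before UVR8, 5 were higher and 4 lower (median 0.12). Of the 25 after AT5G65700, 9 (36.0%) were higher and 6 lower (median 0.18). Of the remaining 155 to the end of the chromosome, 18 were higher and 47 lower (median -0.06). Among the 25 tested genes from WAVH2, inside the stretch, to AT5G65910, beyond it, 14 were higher (median 0.41). Among the next 25, from AT5G65920 to PAD2, 3 were higher (median -0.16). AT5G65700 thus need not mark where the shift ends. Across the alternatives 114 to 135 genes of the stretch were higher, with medians of 0.31 to 0.45.

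The same genes stood out in the other comparisons of the genotypes. The 27 °C libraries shared the fit, and so the estimate of spread, with the libraries used to choose the stretch. Those of 12 h did not. At 27 °C 135 of the 180 were higher and 7 lower (median 0.41), where 17.1% of all tested genes were higher and 20.4% lower, 37.4% in all. After 12 h at 21 °C 67 of 175 were higher and 7 lower (median 0.22), where 16.7% of all tested genes were higher and 12.1% lower, 28.8% in all. The functions in the stretch were mixed. UVR8, the UV-B photoreceptor, held 57, 57.1 and 56.2 TPM in ino80 against 37.1, 41.9 and 40.3 TPM in Col (0.50 ± 0.05). MC3, a metacaspase, held 63.7, 63.2 and 60 TPM in ino80 against 35.3, 37.4 and 36.5 TPM in Col (0.76 ± 0.06), and the chloroplast dicarboxylate transporter DIT2.1 was higher by 0.64 ± 0.05. The clock gene LNK1 (0.54), the auxin gene IAA9 (0.48), the photosystem I gene PSAN (0.32) and the FLC relatives MAF2 (0.53), MAF3 (0.52) and MAF5 (1.18) also lie there, so these genes are within the shifted stretch; LNK1 also overlaps another gene. MAF4 (0.21) was not called.

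**Figure D2:**
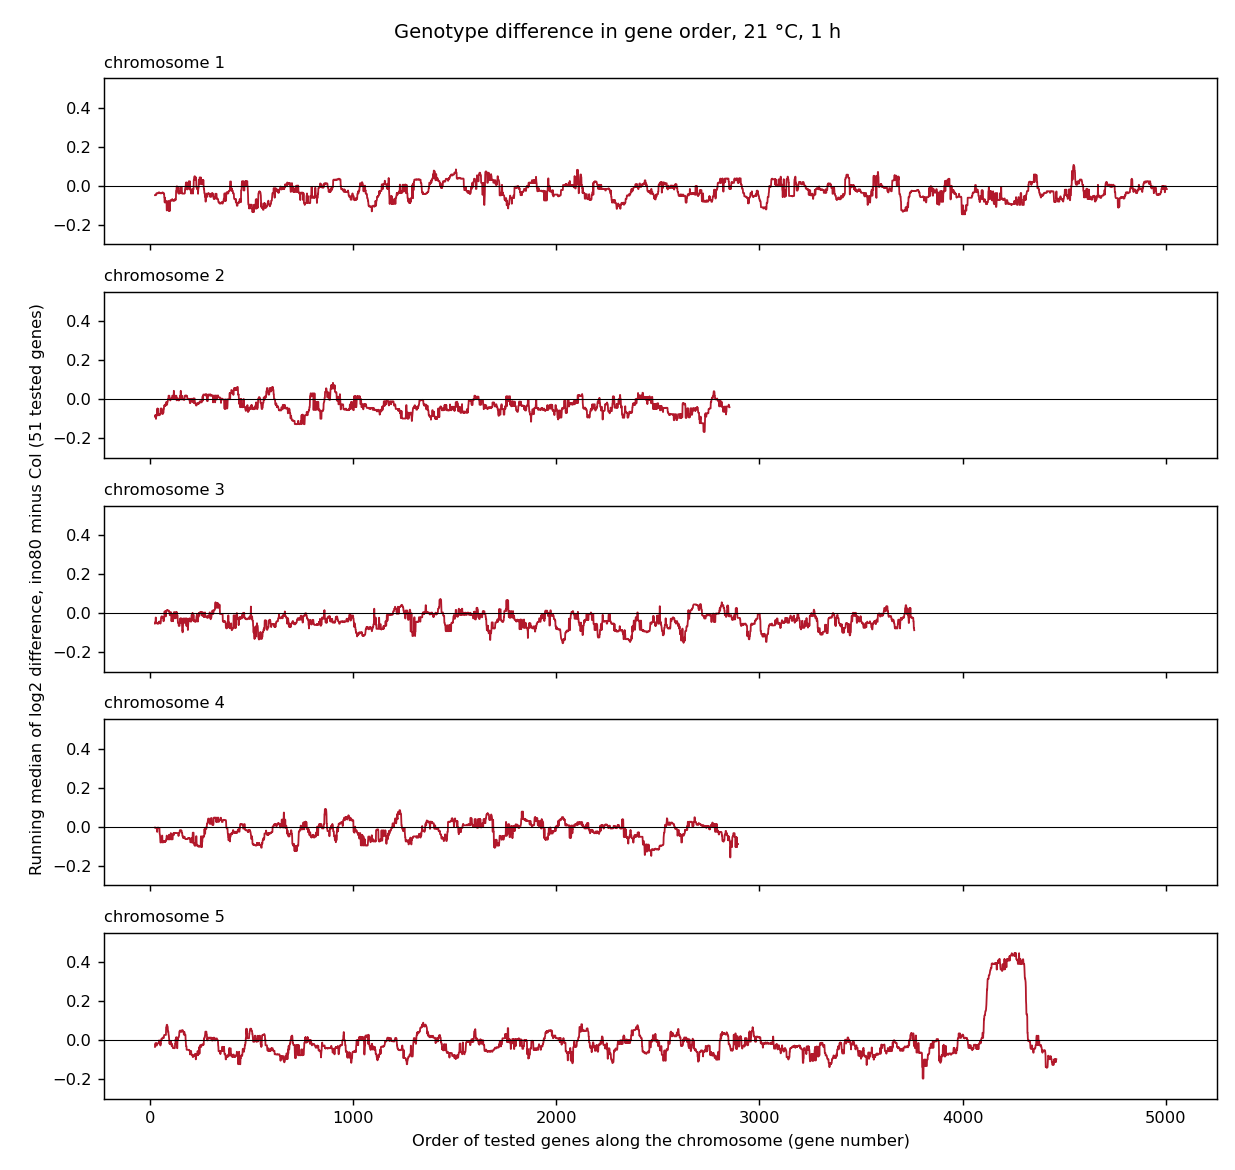
Running median over 51 tested genes of the log2 difference, ino80 minus Col, at 21 °C and 1 h, against the order of tested genes on each of the 5 chromosomes. The line stays between -0.20 and 0.11 outside the distal part of chromosome 5, where it reaches 0.45.

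Histone genes moved in the other direction. Replication-coupled histones package newly copied DNA, and their genes are transcribed mainly in S phase. Of 30 tested genes of this class, 23 were lower in ino80 and none was higher, with a median of -0.50. Of all tested genes 20.5% were lower. AT2G28720 held 28.4, 24.7 and 32.1 TPM in ino80 and 55.9, 65.6 and 63.8 TPM in Col (-1.10 ± 0.09, adjusted p = 1.9e-07). HTA13, an H2A gene, held 27.6, 27.8 and 24.9 TPM in ino80 and 45.2, 45.3 and 45.2 TPM in Col (-0.74 ± 0.06). HTA10, another H2A gene, held 141, 129 and 140 TPM in ino80 and 196, 195 and 193 TPM in Col (-0.51 ± 0.05). In all 3 the genotypes were clear of each other, as they were in 44.5% of all tested genes. The summed level of the class was 1961, 1890 and 1993 TPM in ino80 against 2631, 2615 and 2584 TPM in Col. The 7 genes that were not called lay between -0.24 and 0.16, and 1 of them was called higher without Col replicate 3. Histone genes are near-identical in parts, and how reads shared between copies were counted is not stated, so values of single copies are less certain than the sum. At 27 °C the counts were the same, none higher and 23 lower, where 20.4% of all tested genes were lower. After 12 h none was higher and 11 were lower, or 36.7% called where 28.8% of all tested genes were.

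Plant histone promoters are known for an octamer motif, CGCGGATC. It was found on either strand within the 250 bases before the annotated start of 8 of the 30 histone genes (26.7%), against 30 of 19099 promoters of tested genes (0.157%). Of the 23 lower genes 6 carried it, a share like that of the whole class. Below are the promoters of 3 lower genes and of AT5G65360, which carried the motif and was not called (-0.05 ± 0.05; 174, 176 and 174 TPM in ino80 against 185, 188 and 170 TPM in Col). AT5G65360 lies within the chromosome 5 stretch. They are given 5′ to 3′ on the strand of the gene, from RefSeq TAIR10.1, with the octamer in capitals, at chr3:7229140-7229389 (plus strand), chr1:18926561-18926810 (plus), chr5:24051224-24051473 (plus) and chr5:26120582-26120831 (minus).
HTA13: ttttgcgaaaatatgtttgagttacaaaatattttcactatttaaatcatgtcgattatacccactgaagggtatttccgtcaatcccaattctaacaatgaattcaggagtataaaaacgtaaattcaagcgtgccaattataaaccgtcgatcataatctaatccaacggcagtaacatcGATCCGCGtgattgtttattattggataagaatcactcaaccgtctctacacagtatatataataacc
HTA10: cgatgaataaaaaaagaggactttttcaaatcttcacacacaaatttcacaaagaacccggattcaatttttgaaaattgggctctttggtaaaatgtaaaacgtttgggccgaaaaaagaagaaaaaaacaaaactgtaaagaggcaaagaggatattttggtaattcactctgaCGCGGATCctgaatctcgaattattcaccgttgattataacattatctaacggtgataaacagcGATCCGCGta
AT5G59690: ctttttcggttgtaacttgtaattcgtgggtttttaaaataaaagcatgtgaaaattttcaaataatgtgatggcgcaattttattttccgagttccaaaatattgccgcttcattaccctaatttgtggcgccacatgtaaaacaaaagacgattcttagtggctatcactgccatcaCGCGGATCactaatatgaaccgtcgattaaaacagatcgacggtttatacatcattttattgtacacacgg
AT5G65360: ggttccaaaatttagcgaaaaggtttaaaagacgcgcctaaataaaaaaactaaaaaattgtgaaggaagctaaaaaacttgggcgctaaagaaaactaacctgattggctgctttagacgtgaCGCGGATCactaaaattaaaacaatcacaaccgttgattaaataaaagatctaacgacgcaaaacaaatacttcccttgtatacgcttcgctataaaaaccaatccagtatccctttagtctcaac
In the first 3 the octamer nearest the 5′ end starts 68, 74 and 71 bases before the gene start, and in AT5G65360 126 bases before. AT5G59690 held 110, 97.3 and 112 TPM in ino80 and 170, 156 and 159 TPM in Col (-0.60 ± 0.07). A match describes the letters and does not show that a factor bound there.

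Genes of DNA replication fell with the histones. Of 24 tested, 14 were lower and 2 higher, with a median of -0.31, or 66.7% called where 35.9% of all tested genes were. TSO2, a subunit of ribonucleotide reductase, held 50.9, 54.4 and 54.4 TPM in ino80 against 99.1, 77 and 94.4 TPM in Col (-0.74 ± 0.08, adjusted p = 3.7e-06). The sliding clamp gene PCNA1 was lower by 0.57 ± 0.10. All 6 subunits of the MCM helicase were lower, from MCM4 (-0.29) to MCM3 (-0.44). MCM4 was not called without Col replicate 2 or 3 or without ino80 replicate 1 or 3 (adjusted p up to 0.1). MCM2 held 10.4, 11 and 10.7 TPM in ino80 against 13.7, 14.7 and 14.9 TPM in Col. The 2 higher genes were RNR2A (0.38), another reductase subunit, and KRP2 (0.37), a cyclin-dependent kinase inhibitor. The mitotic genes CYCB1;1 (-0.25) and CDKB2;1 (-0.17) were not called. At 27 °C 17 were lower and 2 higher, or 79.2% called where 37.4% of all tested genes were. After 12 h 6 were lower and 1 higher, or 29.2% called, near the 28.8% of all tested genes. Motifs of the E2F family, which drives S phase genes, were searched as TTTCCCGC on either strand and found in 5 of the 24 promoters (20.8%), against 114 of 19099 (0.597%), and in none of the 30 histone promoters. Of the 14 lower genes 3 carried the motif, a share like that of the whole list. The promoters of 2 lower genes that hold it are shown with the motif in capitals, at chr1:16969964-16970213 (plus strand) and chr5:18010668-18010917 (minus strand).
MCM2: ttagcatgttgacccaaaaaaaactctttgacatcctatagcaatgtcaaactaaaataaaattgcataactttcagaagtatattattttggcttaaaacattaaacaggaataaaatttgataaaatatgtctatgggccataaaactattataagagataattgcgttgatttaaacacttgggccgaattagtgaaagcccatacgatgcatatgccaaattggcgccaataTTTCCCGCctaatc
MCM6: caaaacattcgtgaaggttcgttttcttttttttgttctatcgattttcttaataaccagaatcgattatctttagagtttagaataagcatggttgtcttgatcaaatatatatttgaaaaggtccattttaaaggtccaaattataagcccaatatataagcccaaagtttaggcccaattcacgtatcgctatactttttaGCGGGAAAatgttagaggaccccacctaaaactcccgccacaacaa
The match starts 14 bases before the start of MCM2 and 46 bases before that of MCM6, which was lower by 0.41 ± 0.10.

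**Figure D3:**
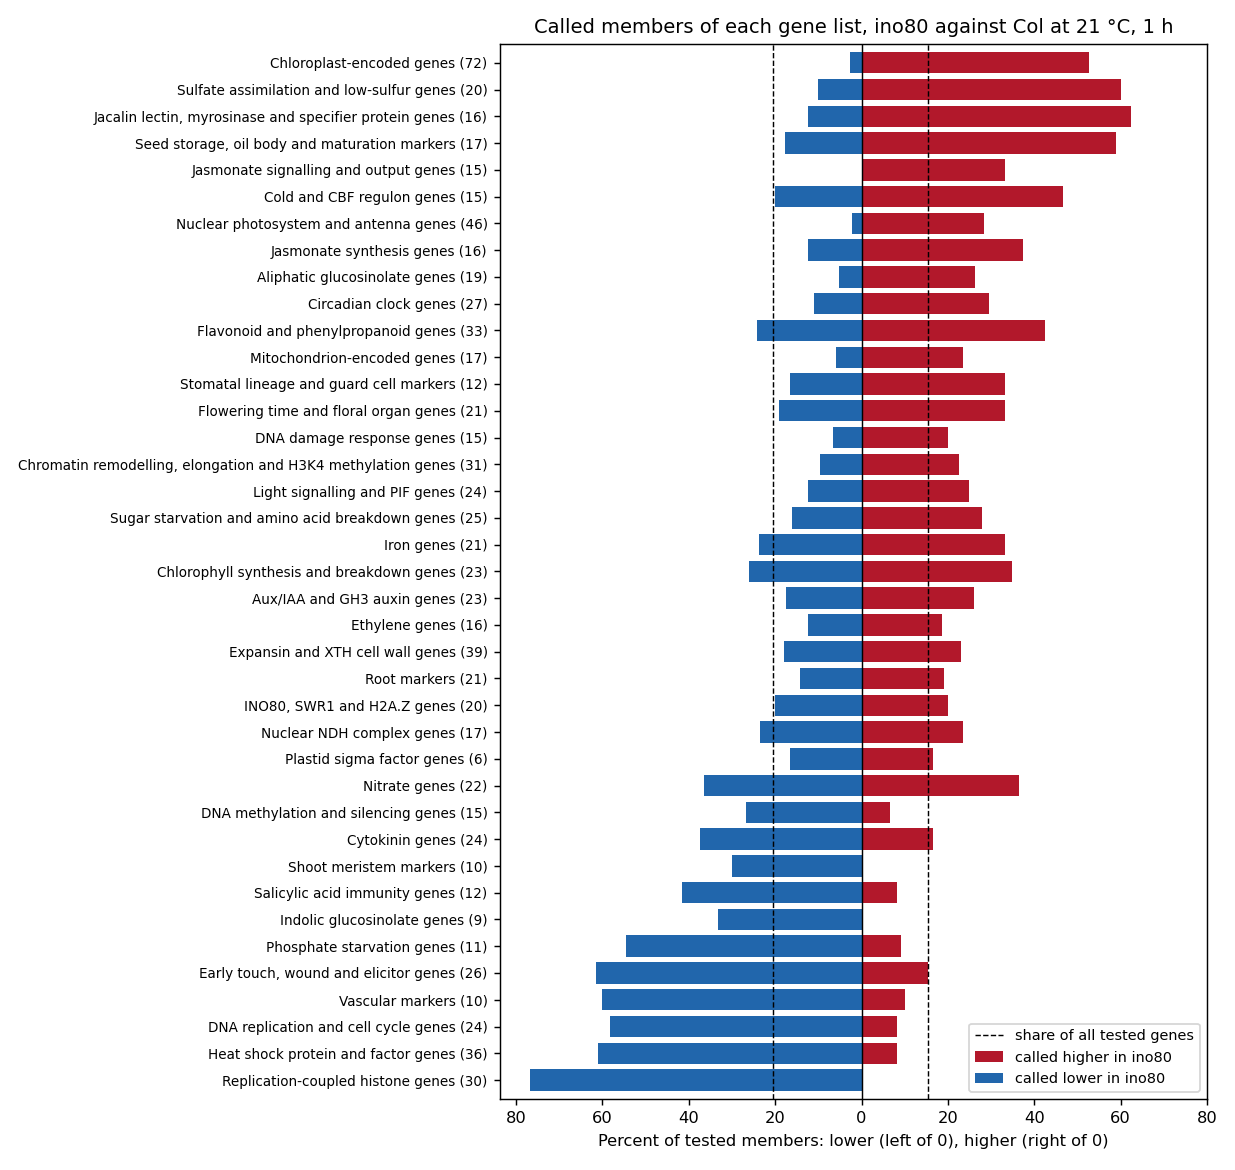
Percent of the tested members of each gene list called higher (right, red) or lower (left, blue) in ino80 at 21 °C and 1 h, with the number of tested members in brackets; dashed lines mark the shares of all tested genes, 20.5% lower and 15.4% higher. Histone, touch, heat shock, vascular and replication genes stand at the lower end, and sulfate, myrosinase and seed genes at the higher.

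Several cytokinin response genes were lower. Type-A response regulators are quickly induced by cytokinin and dampen its signal, and are read as a gauge of it. Among the 24 tested cytokinin genes 9 were lower and 4 higher (median -0.22), and 5 of the 9 lower ones were type-A regulators. In the list 54.2% were called, where 35.9% of all tested genes were. ARR15 held 0.51, 0.869 and 0.777 TPM in ino80 and 6.23, 7.19 and 7.07 TPM in Col (-2.19 ± 0.14, adjusted p = 1.2e-08). ARR7 held 26.1, 26.9 and 29.3 TPM in ino80 and 60.8, 75 and 72.2 TPM in Col (-1.30 ± 0.09). ARR4 held 42.1, 43.7 and 44 TPM in ino80 and 83.1, 95.2 and 90.7 TPM in Col (-1.03 ± 0.06). In these genes the ino80 libraries all lay below the Col libraries, where 44.5% of all tested genes were separate either way. ARR6 (-1.31; it overlaps another gene) and ARR5 (-1.11) were lower too, while ARR3, ARR8, ARR9 and ARR16 had differences of -0.29 to 0.18 and were not called. The response factor CRF2 was lower by 1.03 ± 0.08. So were IPT3 (-0.49), a cytokinin synthesis gene, CYP735A2 (-0.51), which makes the trans-zeatin form, and CKX4 (-0.67), which degrades cytokinin. The 4 higher genes were the receptor AHK2 (0.50), the type-B regulators ARR10 (0.19) and ARR12 (0.32), and CKX7 (0.29); ARR10 was not called without ino80 replicate 1 (adjusted p = 0.053, the highest over the alternatives).

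Early touch, wound and elicitor genes were mostly lower. Handling, wounding and microbial patterns switch these genes on quickly. Of 26 tested, 16 were lower and 4 higher in ino80 (median -0.50), or 76.9% called where 35.9% of all tested genes were. WRKY40 held 1.16, 0.983 and 1.07 TPM in ino80 and 12.2, 8.82 and 8.62 TPM in Col (-2.38 ± 0.14, adjusted p = 6.4e-09). DIC2, a mitochondrial dicarboxylate carrier, held 9.66, 9.4 and 8.63 TPM in ino80 and 39.3, 35.4 and 32.2 TPM in Col (-1.84 ± 0.10). The zinc finger gene SZF1 held 15.4, 16.8 and 20.3 TPM in ino80 and 40.3, 41.8 and 37.9 TPM in Col (-1.16 ± 0.11). The calmodulin-like CML37 (-1.18), WRKY33 (-0.97; it overlaps another gene), the cell wall gene XTH22 (-0.89), the zinc finger genes ZAT10 (-0.81) and ZAT12 (-0.76) and the ethylene response factor ERF6 (-1.10) were lower as well. The 4 higher genes were WRKY18 (0.77), MYB44 (0.43; it overlaps another gene), CAX3 (0.39) and the kinase MPK3 (0.34). CAX3 was not called without Col replicate 3 or without ino80 replicate 3 (adjusted p up to 0.056). At 27 °C 3 of the 26 were lower and 9 were higher (median 0.06), or 46.2% called where 37.4% of all tested genes were. After 12 h at 21 °C 3 of 25 were lower and 8 higher, or 44.0% called where 28.8% of all tested genes were. The change in the genotype difference between temperatures was itself called for 11 of the 26, all positive (27 °C minus 21 °C), among them WRKY40 (1.55 ± 0.20, adjusted p = 0.00071), DIC2 (1.38), ZAT10 (1.27), CML37 (1.18), SZF1 (1.07), WRKY33 (1.03) and XTH22 (0.85), where 1.88% of all tested genes were. 

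Heat shock genes were mostly lower at 21 °C. Chaperones of the HSP70, HSP90, HSP101 and small HSP families hold proteins in their folded state, and HSFA2 is a heat shock factor that sustains their transcription. Of 36 tested genes 22 were lower and 3 higher (median -0.28), or 69.4% called where 35.9% of all tested genes were. Hsp70-2 held 15.9, 14.5 and 15.4 TPM in ino80 and 51.4, 44.9 and 42 TPM in Col (-1.53 ± 0.07, adjusted p = 4.6e-10). HSP70 held 175, 190 and 182 TPM in ino80 and 309, 331 and 307 TPM in Col (-0.79 ± 0.06). HSFA2 held 7.46, 6.89 and 7.27 TPM in ino80 and 14.6, 15.4 and 11.7 TPM in Col (-0.85 ± 0.08). The groups were apart in all 3, as in 44.5% of all tested genes. The most abundant chaperone gene, HSC70-1, held 2882, 3144 and 2920 TPM in ino80 and 3552, 3775 and 3669 TPM in Col (-0.30 ± 0.05). HSP101 (-0.66), the small HSP gene AT1G07400 (-1.15), HSFA4A (-0.90) and FES1A (-0.46), a partner of HSP70, were lower. The factors HSFA1A, HSFA1B, HSFA1D and HSFA1E, which start the heat response, had differences of -0.22 to 0.24 and were not called. The 3 higher genes were BIP3 (0.63), a chaperone of the endoplasmic reticulum, HSP17.4 (0.45; it overlaps another gene) and AT5G37670 (0.39). HSP17.4 was not called with a pseudocount of 5 or without ino80 replicate 3 (adjusted p up to 0.2). AT5G37670 was not called under 7 of the alternatives, among them those without Col replicate 2 or 3 or ino80 replicate 1 or 3 (adjusted p up to 0.17). At 27 °C 21 were lower and 4 higher, or 69.4% called where 37.4% of all tested genes were. After 12 h at 21 °C 4 were lower and 10 higher, or 41.2% called where 28.8% of all tested genes were. After 12 h HSFA2 was higher (0.52). The paired core of the heat shock element, GAANNTTC, was found on either strand in 6 of the 36 promoters (16.7%), against 1753 of 19099 (9.18%).

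Jasmonate synthesis genes were mixed. Of 16 tested 6 were higher and 2 lower (median 0.05). LOX2, the lipoxygenase of the first step in leaves, held 42.1, 43.5 and 38.6 TPM in ino80 and 15.4, 15.6 and 14.6 TPM in Col (1.39 ± 0.06, adjusted p = 1.7e-10). AOS, which acts next, held 209, 206 and 202 TPM in ino80 and 109, 105 and 108 TPM in Col (0.93 ± 0.05). Of the allene oxide cyclases that follow, AOC2 rose as given above and AOC4 by 0.40 ± 0.06, while AOC1 (-0.11) and AOC3 (-0.08) were not called; these copies are alike in sequence. LOX3 was higher (0.33), as was OPR3 (0.26), which acts in the peroxisome. OPR3 was not called without Col replicate 1 or 3, without ino80 replicate 3 or with the 2 groups alone (adjusted p up to 0.13). LOX4 (-1.05) and JAR1 (-0.42), which joins jasmonate to isoleucine, were lower. Of 15 signalling and output genes 5 were higher and none lower, or 33.3% called where 35.9% of all tested genes were. The 5 were JAZ9 (0.84), VSP2 (1.16), JAZ2 (0.40), JAZ3 (0.42) and MYC3 (0.25), and 1 gene of the list was lower without Col replicate 2. After 12 h AOS (-0.97) and LOX2 were lower in ino80.

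Genes of the mustard oil defence were largely higher. Myrosinases such as TGG1 cut glucosinolates when tissue is broken, and specifier and lectin proteins shape the products. Of 16 tested genes 10 were higher and 2 lower (median 0.26). TGG1 held 1109, 1173 and 1157 TPM in ino80 and 612, 557 and 601 TPM in Col (0.96 ± 0.05, adjusted p = 1.1e-09). The nitrile specifier gene NSP5 (0.73), PBP1 (0.52), the lectin gene AT1G52100 (0.66) and MBP2 (1.13) were higher. The 2 lower genes were ESM1, with 23.3, 24.4 and 25.3 TPM in ino80 against 67.3, 51.5 and 56.6 TPM in Col (-1.22 ± 0.08), and NSP4 (-0.29), which was not called without ino80 replicate 3 (adjusted p = 0.053, the highest over the alternatives). On the synthesis side 31.6% of the aliphatic and 33.3% of the indolic genes were called, near the 35.9% of all tested genes. Of 19 aliphatic glucosinolate genes 5 were higher and 1, the regulator MYB29 (-0.49), was lower, and the count of 5 fell to between 1 and 3 under 8 of the alternatives, among them those without Col replicate 2 or 3 or ino80 replicate 1 or 2. The higher ones were FMOGS-OX1 (0.64), AT2G31790 (0.28; it overlaps another gene), MAM1 (0.98), CYP79F1 (0.84) and BAT5 (0.36). In MAM1 the genotypes overlapped, with 4.73, 5.6 and 2.98 TPM in ino80 and 3.71, 0.863 and 1.21 TPM in Col. CYP79F1, MAM1 and BAT5 each lost the call under 5 or more alternatives (adjusted p up to 0.19). Without Col replicate 2 the differences of CYP79F1 and MAM1 were 0.52 and 0.72. None of the 3 was called without Col replicate 2 or 3 or without ino80 replicate 1 or 2, nor CYP79F1 without ino80 replicate 3. Of 9 indolic glucosinolate genes none was higher and 3 were lower, SOT16 (-0.43), CYP79B2 (-0.63) and the regulator MYB34 (-0.28). MYB34 was not called without ino80 replicate 3 (adjusted p = 0.059, the highest over the alternatives).

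Anthocyanin genes rose, while several entry genes of the pathway fell. Phenylalanine passes through PAL, C4H and 4CL to the flavonoid enzymes, and DFR, LDOX and later enzymes turn flavonoids into pigment. Of 33 tested genes 14 were higher and 8 lower (median 0.15), or 66.7% called where 35.9% of all tested genes were. DFR held 41.9, 40.2 and 42 TPM in ino80 and 16.5, 14.7 and 14.6 TPM in Col (1.38 ± 0.07, adjusted p = 1.9e-09). 5MAT, which adds a malonyl group to anthocyanin, held 43.6, 43.9 and 45.4 TPM in ino80 and 13.9, 12.4 and 13.2 TPM in Col (1.68 ± 0.07). LDOX held 42.3, 42.3 and 42.5 TPM in ino80 and 21.8, 19.3 and 18.2 TPM in Col (1.07 ± 0.07). In these genes every ino80 library lay above every Col library, where 44.5% of all tested genes were separate either way. The glycosyltransferase UF3GT (1.32) and the transport gene TT19 (1.13) were higher too. Among the regulators the activator TT8 (1.42), PAP1 (0.84) and the repressor MYBL2 (0.70) were higher, and the bHLH gene EGL3 (-0.63), which also acts in trichomes, was lower. The early enzymes CHI (0.06) and F3H (-0.09) were not called, CHS was higher by 0.15 and was not called without ino80 replicate 1 or with the 2 groups alone (adjusted p up to 0.055), and of the entry enzymes PAL4 (-0.58), C4H (-0.20), 4CL2 (-0.32) and 4CL5 (-0.49; it overlaps another gene) were lower. PAL1 and PAL2, which supplied most PAL transcript, were not called (0.07 and -0.01).

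**Figure D4:**
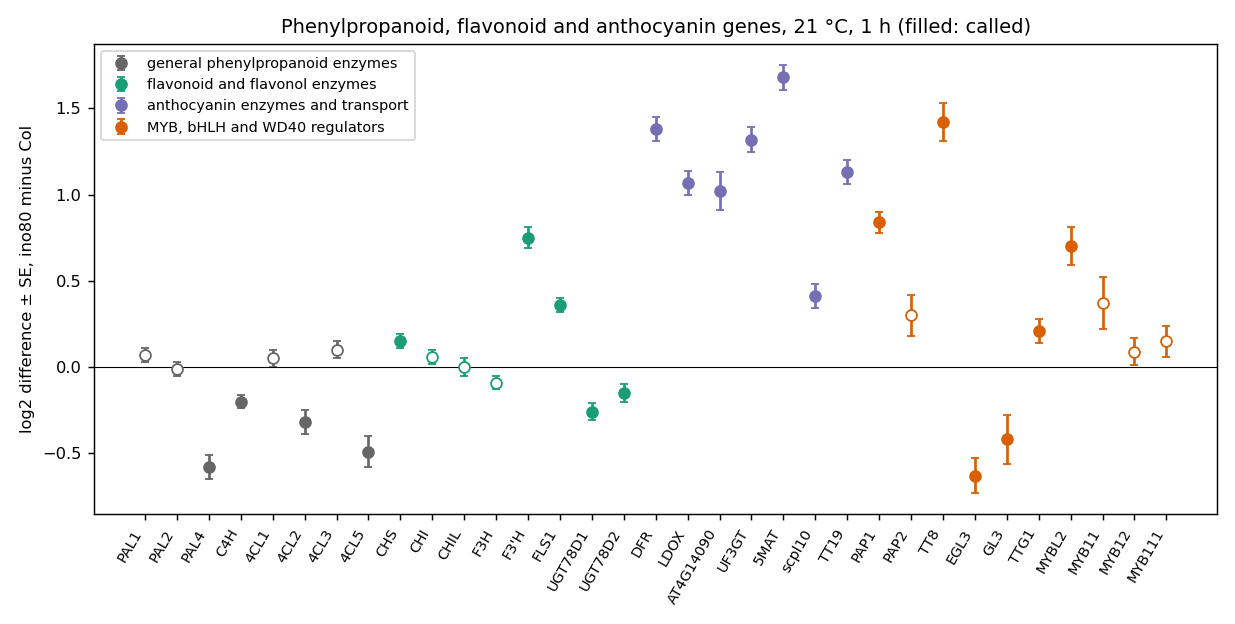
Log2 difference ± SE, ino80 minus Col, at 21 °C and 1 h for phenylpropanoid, flavonoid and anthocyanin genes, in pathway order and coloured by role, with filled points for called genes. The anthocyanin genes lie between 0.41 and 1.68, above the entry and early flavonoid enzymes other than F3'H (0.75).

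Sulfur genes were mostly higher at 21 °C. Plants short of sulfate raise genes for its uptake and reduction, and the LSU and SDI genes are known markers of that state. Of 20 tested genes 12 were higher and 2 lower (median 0.29), or 70.0% called where 35.9% of all tested genes were. SDI1 held 38.7, 38.3 and 43.3 TPM in ino80 and 15.5, 18.2 and 16.6 TPM in Col (1.21 ± 0.12, adjusted p = 2e-06). LSU1 held 24.4, 15.9 and 23.8 TPM in ino80 and 8.08, 5.43 and 6.5 TPM in Col (1.54 ± 0.15). The reductase APR1 held 1025, 1039 and 1048 TPM in ino80 and 587, 795 and 651 TPM in Col (0.62 ± 0.08). The groups did not overlap in these genes, as in 44.5% of all tested genes, while LSU2 overlapped and was not called (0.01). GGCT2;1, which breaks down glutathione, was higher by 1.29 ± 0.14, and SHM7 by 0.81 ± 0.08. The 2 lower genes were the sulfate transporter SULTR2;1 (-0.34) and the regulator SLIM1 (-0.24). SLIM1 was not called without Col replicate 2 or 3, without ino80 replicate 2 or with the 2 groups alone (adjusted p up to 0.088). At 27 °C 6 were higher and 2 lower, or 40.0% called, near the 37.4% of all tested genes. After 12 h 1 was higher and 7 were lower, or 40.0% called where 28.8% of all tested genes were. The change in the difference between temperatures was called for 4 of the 20, all negative, among them LSU1 (-1.52), SDI1 (-1.42) and SHM7 (-0.61).

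Nitrate genes went both ways, 8 higher and 8 lower of 22. The nitrate, phosphate starvation and iron lists had 72.7%, 63.6% and 57.1% of their tested genes called, where 35.9% of all tested genes were. The nitrate reductase NIA1 held 136, 151 and 139 TPM in ino80 and 95.2, 74.8 and 92.2 TPM in Col (0.70 ± 0.07), while NIA2 was lower (-0.41). UPM1, which makes sirohaem for nitrite reductase, held 27.6, 32.8 and 32.3 TPM in ino80 and 69.5, 75.2 and 69.2 TPM in Col (-1.18 ± 0.06; it overlaps another gene). The nitrogen response repressors LBD37 (-0.81), LBD38 (-0.53) and LBD39 (-0.69) were all lower. Of 11 phosphate starvation genes 6 were lower and 1 higher, the ribonuclease RNS1 (0.79); 2 were higher without Col replicate 2. SPX1, a phosphate sensor, held 156, 142 and 137 TPM in ino80 and 199, 283 and 268 TPM in Col (-0.77 ± 0.10), and was higher at 27 °C (0.33). Of 21 iron genes 7 were higher and 5 lower. The root iron transporter IRT1 (0.86) and the reductase FRO2 (0.71) were higher, and the regulators BHLH39 (-0.86) and PYE (-0.55) were lower. The higher count was 4 without Col replicate 3 or without ino80 replicate 1, and the lower count 3 without ino80 replicate 1.

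The nuclear photosystem and antenna list had 30.4% of its tested genes called, where 35.9% of all tested genes were. Of 46 nuclear photosystem and antenna genes 13 were higher and 1, LHCB1.2 (-0.30), was lower (median 0.08); without Col replicate 2 the lower ones numbered 6, and without Col replicate 1 they numbered 2. The list summed to 221961, 216380 and 222461 TPM in ino80 and 222292, 184417 and 207708 TPM in Col, so the genotypes overlapped. LHCB4.3, a minor antenna protein, held 77.1, 78.2 and 73.2 TPM in ino80 and 35.5, 32.2 and 33.5 TPM in Col (1.15 ± 0.05, adjusted p = 5.8e-10). RBCS2B (0.48), LHCB1.1 (0.46) and LHCB2.1 (0.40) were higher, in families whose copies are alike. After 12 h 3 of the 46 were higher and 31 lower, or 73.9% called where 28.8% of all tested genes were. Among the chlorophyll genes NYC1, a chlorophyll b reductase, held 17.5, 16.8 and 16.7 TPM in ino80 and 56, 69.5 and 61 TPM in Col (-1.81 ± 0.08). Of the 23 tested genes of this list 8 were higher and 6 lower, or 60.9% called where 35.9% of all tested genes were. The regulators GLK2 (0.67) and GLK1 (0.35), which switch on antenna genes, were higher. Of the plastid sigma factors SIG2 was lower by 0.96 ± 0.05 (30.3, 31.4 and 31 TPM in ino80, 61.9, 60.2 and 60.7 TPM in Col).

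Of 72 tested chloroplast-encoded genes 38 were higher and 2 lower (median 0.56), and at 27 °C 68 were higher and 1 lower (median 1.44). The shares called were 55.6% at 21 °C and 95.8% at 27 °C, against 35.9% and 37.4% of all tested genes. After 12 h 6 of 71 were higher and 3 lower (median 0.05), or 12.7% called where 28.8% of all tested genes were. They summed to 1906, 1448 and 1466 TPM in ino80 against 1047, 1561 and 1215 TPM in Col, so Col replicate 2 lay within the ino80 range. ATCG00120 was higher by 1.85 ± 0.16, and ATCG01020 was lower by 1.22 ± 0.17. The lower count was 1 without Col replicate 2 or ino80 replicate 2 and 4 without ino80 replicate 1. Organelle transcripts carry short or no poly(A) tails, and the labels do not state how RNA was selected. Mitochondrion-encoded transcripts summed to 104, 95.4 and 106 TPM in ino80 and 82.7, 79.5 and 70.9 TPM in Col. Of 17 tested 4 were higher and 1 lower, or 29.4% called where 35.9% of all tested genes were. Of these, 1 was higher without Col replicate 3, and 2 were higher and 2 lower without ino80 replicate 1.

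Seed genes were mostly higher. Storage proteins, oleosins and late embryo proteins are made in the maturing embryo and fade after germination. Of 17 tested 10 were higher and 3 lower (median 0.87), and of those with a mean TPM of at least 5, 5 were higher. Of the 17, 76.5% were called, where 35.9% of all tested genes were. CRA1, a cruciferin, held 42.3, 44.7 and 41.5 TPM in ino80 and 7.12, 9.45 and 6.03 TPM in Col (2.38 ± 0.11, adjusted p = 7.4e-10). The albumin gene SESA1 held 3.21, 5.42 and 3.22 TPM in ino80 and 0.125, 0.186 and 0 TPM in Col (2.14 ± 0.32). SESA5 held 14.7, 26.5 and 21 TPM in ino80 and 3.81, 7.07 and 0.376 TPM in Col (2.49 ± 0.64), and was not called with robust empirical Bayes (adjusted p = 0.056). The genotypes were separate in all 3, as in 44.5% of all tested genes. OLEO1 (1.01), a coat protein of oil bodies, and the regulator ABI3 (0.42) were higher, and RAB18 (-0.53), EM6 (-0.64, and -0.39 without ino80 replicate 2) and PER1 (-0.38) were lower. The summed level of all 22 measured genes was 339, 307 and 316 TPM in ino80 and 304, 308 and 300 TPM in Col. Storage protein genes are alike in sequence, so reads could be split between copies. At 27 °C 11 were higher and 1 lower, or 70.6% called where 37.4% of all tested genes were.

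Other tissue markers went both ways. The root and shoot meristem lists had 33.3% and 30.0% of their tested genes called, near the 35.9% of all tested genes. Of 10 vascular markers 6 were lower and 1, the phloem sugar transporter SUC2 (0.49), was higher (median -0.36). The xylem protease XCP1 held 16.4, 17.1 and 17.3 TPM in ino80 and 28.5, 25.4 and 28.6 TPM in Col (-0.67 ± 0.07, adjusted p = 3.7e-06), and the cellulose synthases of the secondary wall, IRX1 (-0.45; it overlaps another gene), IRX3 (-0.40) and IRX5 (-0.44), were lower. The list summed to 274, 303 and 266 TPM in ino80 and 336, 335 and 334 TPM in Col. Of 21 root markers 4 were higher and 3 lower, among them PBP1 (given above with the mustard oil genes) and PYK10 (0.34), a myrosinase of endoplasmic reticulum bodies, on the higher side and HKT1 (-0.74), a sodium transporter, on the lower. Of 12 stomatal lineage and guard cell markers 4 were higher, TMM (0.62) first among them, and 2 were lower, KAT1 (-0.43) and EPF2 (-0.53). EPF2 was not called without Col replicate 1 (-0.32) or ino80 replicate 1 (-0.36), nor with the 2 groups alone or quantile normalization (adjusted p up to 0.11). The higher count was 2 without ino80 replicate 2 or 3. Of 10 shoot meristem markers none was higher and 3 were lower, ANT (-0.45), CUC1 (-0.45) and CUC2 (-0.62). CUC1 was not called without Col replicate 1 or 3 or without ino80 replicate 1 or 3 (adjusted p up to 0.076), and 1 marker was higher without Col replicate 2 or without ino80 replicate 2. The part of cell type shares in these differences was not tested. Of 39 expansin and XTH genes, whose products loosen cell walls, 9 were higher, among them XTH7 (0.67) and XTH24 (0.66), and 7 lower, among them EXPA15 (-0.47) and EXPA1 (-0.35). In that list 41.0% were called, near the 35.9% of all tested genes.

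Flowering genes went both ways. FLC, which holds back flowering, held 12.7, 14.6 and 13.4 TPM in ino80 and 5.23, 5.74 and 5.64 TPM in Col (1.16 ± 0.08, adjusted p = 2.5e-08; it overlaps another gene). Its target SOC1, which promotes flowering, held 1.98, 1.56 and 1.67 TPM in ino80 and 3.3, 4.29 and 3.6 TPM in Col (-0.79 ± 0.12). Of 21 tested genes of this list 7 were higher and 4 lower, or 52.4% called where 35.9% of all tested genes were. The floral organ gene PI was higher by 1.09 ± 0.13, and FLD (0.55) and TEM1 (0.53) were higher. The lower count was 2 without Col replicate 2 or without ino80 replicate 1 or 3.

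The light, clock and ethylene lists had 37.5%, 40.7% and 31.2% of their tested genes called, near the 35.9% of all tested genes. The Aux/IAA and GH3 list had 43.5% called. PIF7, a phytochrome-interacting growth factor, held 22.5, 26.3 and 22.9 TPM in ino80 and 55.6, 65.4 and 57.4 TPM in Col (-1.28 ± 0.08, adjusted p = 1.5e-08; it overlaps another gene). PIF3 (0.69), PIF5 (0.29) and PIL1 (1.10) were higher, and PIF4 (0.17) was not called. The photoreceptor gene PHYD was lower (-0.69) and CRY1 (0.32) and CRY2 (0.27) were higher, among 6 higher and 3 lower of 24. Of 27 clock genes 8 were higher and 3 lower, among them TOC1 (0.31) and CDF3 (0.39) higher and GRP8 (-0.48, and -0.26 without ino80 replicate 2) lower, while CCA1 (0.04) and LHY (-0.09) were not called. The lower count was 5 without Col replicate 1 or without ino80 replicate 2. Of 23 Aux/IAA and GH3 genes, which answer to auxin, 6 were higher, led by IAA8 (0.53), and 4 lower, led by DFL1, which conjugates auxin (23.2, 25.7 and 20.1 TPM in ino80, 40.4, 54.8 and 45.9 TPM in Col, -0.99 ± 0.10). Of 16 ethylene genes 3 were higher, among them the receptor ERS2 (1.17) and EBF2 (0.40; it overlaps another gene), and 2 lower, EIN2 (-0.44) and EBF1 (-0.20).

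Stress hormone and energy lists were mixed as well. Of 12 salicylic acid immunity genes 5 were lower, SAG101 (-0.84), EDS5 (-0.60; it overlaps another gene), NPR3 (-0.41), PR5 (-0.43) and NPR4 (-0.32), and 1 higher, EDS1 (0.21). EDS1 was not called without Col replicate 3, without ino80 replicate 1 or 3 or with the 2 groups alone (adjusted p up to 0.089). Of 15 cold genes 7 were higher and 3 lower. COR15A, a protein that guards chloroplast membranes in frost, held 106, 114 and 121 TPM in ino80 and 63.2, 40.3 and 64.4 TPM in Col (1.04 ± 0.14). KIN1 (0.98) and ERD10 (0.63) were higher, and the 3 lower genes were RD29B (-0.54), ELIP1 (-0.42) and ELIP2 (-0.19), which was not called with median-of-ratios scaling (adjusted p = 0.056, the highest over the alternatives). Of 25 sugar starvation and amino acid breakdown genes 7 were higher and 4 lower, with DIN10 (-0.52), a sugar starvation marker, among the lower ones, which numbered 2 without ino80 replicate 3.

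In the lists of chromatin and genome upkeep 26.7% to 40.0% of the tested genes were called, around the 35.9% of all tested genes. ATX4, a histone methyltransferase, held 11.1, 12.6 and 11.1 TPM in ino80 and 4.02, 5.81 and 5.5 TPM in Col (1.06 ± 0.11), and the remodeller CHR23 was higher by 0.53 ± 0.08, among 7 higher and 3 lower of 31. The lower count was 1 without Col replicate 2 or without ino80 replicate 1 or 3. Of 20 INO80, SWR1 and H2A.Z genes 4 were higher and 4 lower. The 4 lower ones were INO80 and the H2A.Z genes HTA11, HTA8 and HTA9, and the 4 higher ones AT3G45830 (0.65; it overlaps another gene), SWC2, ARP5 and TAF14 (0.51). Neither ARP5 (adjusted p up to 0.07) nor TAF14 (up to 0.086) was called without Col replicate 1 or without ino80 replicate 2. Of 15 DNA damage genes 3 were higher and 1 lower. GMI1, a repair gene induced by irradiation, held 3.36, 3.9 and 3.13 TPM in ino80 and 0.525, 0.642 and 0.549 TPM in Col (1.50 ± 0.13, adjusted p = 4.4e-07). The end-joining gene KU80 (0.57) and the damage regulator SOG1 (0.42) were higher, and BARD1 (-0.61) was lower. Of 15 DNA methylation and silencing genes 1, AGO4 (0.54), was higher and 4 were lower, DML2, a DNA demethylase, by 1.02 ± 0.11, IBM1 by 0.34, DDM1 by 0.33 and KYP by 0.32. DDM1 was not called without ino80 replicate 1 (adjusted p = 0.064, the highest over the alternatives), nor KYP without Col replicate 2 or ino80 replicate 3 (adjusted p up to 0.062).

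The same genotypes at 27 °C and after 12 h at 21 °C, in libraries that these 6 do not share, showed which differences recurred. At 1 h the tests at 21 °C and 27 °C share an estimate of the spread of each gene. A gene with a small spread is thus favoured for a call in both. The libraries of 12 h were fitted apart. At 27 °C for 1 h 4709 genes were called again in the same direction, which is 68.4% of the calls at 21 °C and 65.6% of those at 27 °C, and 50 were called in the opposite direction. Of the 425 genes that differed by more than 1 log2 unit 393 (92.5%) were called again. After 12 h at 21 °C 2468 were called in the same direction (36.7% and 45.0%) and 392 in the opposite one. Genes called in 1 direction in all 3 comparisons numbered 2026, 987 higher and 1039 lower.

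The gene groups differed in how far they recurred. Histone genes had medians of -0.50, -0.40 and -0.14 at 21 °C, at 27 °C and after 12 h, and seed genes of 0.87, 1.11 and 0.57. Touch genes had medians of -0.50, 0.06 and 0.23, and sulfur genes of 0.29, 0.07 and -0.32. All 5 type-A regulators that were lower at 21 °C were lower at 27 °C. After 12 h ARR15 (-1.25) and ARR4 (-0.19) were lower, while ARR7 (-0.35), ARR6 (-0.34) and ARR5 (-0.21) were not called. The table of 12 h was scaled apart from that of 1 h, so levels are not compared between them, and the time of day at harvest after 12 h is not compared here.

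**Figure D5:**
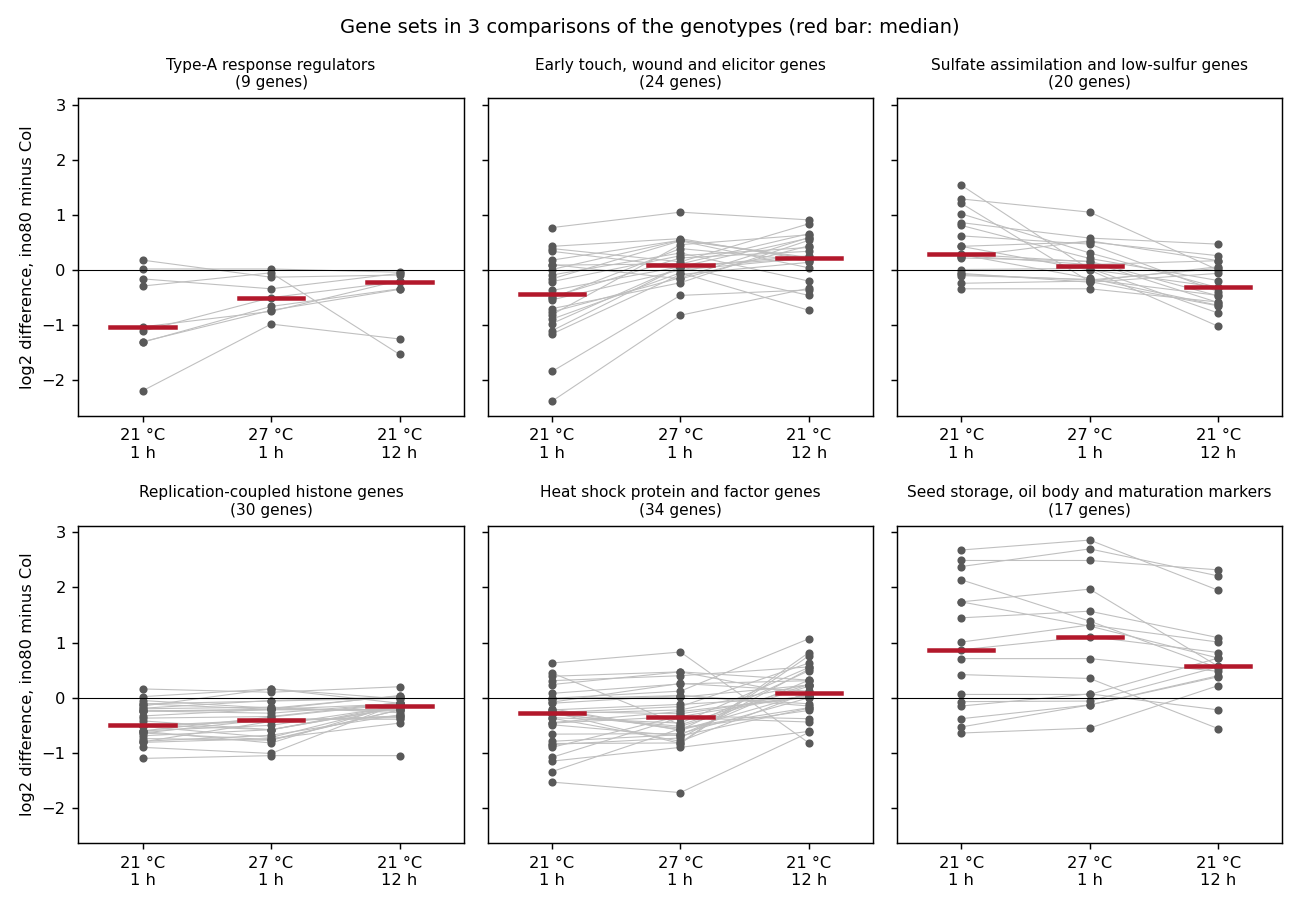
Log2 difference, ino80 minus Col, of each gene tested at both times in 6 gene sets (grey points, joined by gene), at 21 °C for 1 h, 27 °C for 1 h and 21 °C for 12 h, with the median as a red bar. Touch and sulfate genes cross 0 between the comparisons, while most histone genes stay below it and most seed genes above it.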

How the data were processed

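Whole-seedling RNA-seq libraries were deposited by the authors as TPM per gene, 1 table for each time, with a column per library and no pooling. Reads were handled with the aligner HISAT2 2.1.10, the read trimmer fastp 0.20.1, the counter HTSeq 0.11.2 and DESeq2 1.26.0 on the genome TAIR10, per the submitters' processing notes, which give no order. Strand setting, gene lengths and the treatment of shared reads are not given in the sources used here.

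Genes with at least 1 TPM in at least 3 of the 12 libraries of a table were tested on log2(TPM + 1) with limma 3.58.1 in R 4.3.3, with 4 group means, a mean trend and Benjamini-Hochberg adjustment. In simulated data with 19190 genes, for ino80 against Col at 21 °C and 1 h, 68% of changes of 0.5 log2 units and 99% of changes of 1 were recovered, with 9 false calls (5.11%). Only 100 genes were changed by each amount, with independent noise, while 35.9% of tested genes were called in the data. The recovery rates thus need not hold for this comparison. Alternatives changed the pseudocount, filter, scaling, empirical Bayes method, libraries in the fit and replicate block. Depth was estimated from TPM multiplied by RefSeq transcript length: 24.8% to 26.7% of low values lay within 0.03 of a whole fragment, against 3.95% to 4.67% at the median of other step sizes.

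Named genes are INO80 and its neighbours, the 15 largest increases and 15 largest decreases with separate genotypes and a mean of at least 5 TPM, up to 5 called genes per list by moderated t, members of their families, and the ends of runs of neighbouring calls. Other list members were named after their values were seen. The genes and lists were chosen with earlier results of these data known. Names, gene order and promoters come from RefSeq TAIR10.1.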

Additional observations from a re-analysis of the deposited data

Results flagged for a closer look

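For 41 of the 262 genes named here, the difference between ino80 and Col itself differed between 27 °C and 21 °C at 1 h (limma interaction contrast, adjusted p under 0.05 over all tested genes), where 1.88% of all tested genes passed. Many of these genes were named for a strong difference at 21 °C, in libraries that the contrast also uses. An excess over 1.88% and smaller differences at 27 °C are thus partly built in. The values below are the difference at 27 °C minus that at 21 °C, on the log2 scale.

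Touch, wound and elicitor genes all had positive values, from lower levels in ino80 at 21 °C. They were WRKY40 (1.55), DIC2 (1.38), ZAT10 (1.27), CML37 (1.18), SZF1 (1.07), WRKY33 (1.03) and XTH22 (0.85). ZAT10 had opposite calls, higher in ino80 at 27 °C (0.46) and lower at 21 °C (-0.81). The type-A cytokinin regulators ARR15 (1.21), ARR6 (0.65), ARR5 (0.61) and ARR7 (0.57) were lower in ino80 at both temperatures, by less at 27 °C. IPT3, which makes cytokinin, went further down (-0.41).

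Among nutrient genes LSU1 (-1.52), SDI1 (-1.42), SHM7 (-0.61), IRT1 (-0.76) and NAS2 (-0.84) were higher in ino80 at 21 °C, and their differences were smaller at 27 °C. NIA1 had a value of -1.27 and opposite calls, lower in ino80 at 27 °C (-0.57) and higher at 21 °C (0.70), while NIA2 (-0.36) was lower at both. SPX1 (1.10) also had opposite calls, higher at 27 °C (0.33) and lower at 21 °C (-0.77).

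Defence and pigment genes that were higher in ino80 at 21 °C had smaller differences at 27 °C, with values of -0.72 for LOX2, -0.35 for AOS, -0.41 for JAZ9, -0.41 for 5MAT, -0.47 for LDOX, -0.48 for DFR and -0.41 for PAP1. PAL1 (-0.37) and PAL2 (-0.50) were not called at 21 °C and were lower in ino80 at 27 °C. ESM1 (-0.60) was lower at both temperatures, and JAR1 (0.40) was called at 21 °C alone.

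Of the remaining genes AT1G12030 had the value farthest from 0 (-2.47), being higher in ino80 by 0.29 at 27 °C, where it was not called, and by 2.76 at 21 °C. MYB47 (-0.72) was higher and AT1G51440 (0.67) lower in ino80 at both temperatures. HSP17.4 had a value of -0.93, with opposite calls (-0.49 at 27 °C and 0.45 at 21 °C), and it overlaps another gene. The others were HSFA4A (0.57), DFL1 (0.79), NPR3 (0.64), DIN10 (0.54), RAB18 (0.41) and CDF3 (-0.28).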

How the results depend on the processing

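The counts of higher and lower genes stayed within 1.5 times the values given under other pseudocounts, filters, scalings and empirical Bayes settings, and they ranged from 2451 to 3330 higher and from 3280 to 3936 lower when each library was left out in turn. A threshold of at least 1 log2 unit left 179 higher and 246 lower genes. The interaction count of 361 ranged from 186 to 439 with a library left out, and was lowest without Col replicate 2 at 27 °C; with the 2 groups alone it could not be fitted. Leave-one-out counts were 5939 to 6203 at 27 °C and 4078 to 4895 after 12 h.

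Replicate numbers are shared between genotypes, but same-numbered libraries did not deviate together (correlations of 0.02, 0.044 and -0.007), so no pairing was assumed. With the replicate number as a block, 3050 genes were higher and 4052 lower, 7429 were called at 27 °C, 5421 after 12 h and 363 in the interaction.

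Of the 239 called genes named here, 217 were called under every alternative, 22 lost the call under at least 1, and none reversed. Of 33 list counts of at least 5 genes, 4 moved by over 1.5 times, namely aliphatic glucosinolate genes, both iron counts and seed genes, where 5 were higher at a mean TPM of at least 5. Genes at a few fragments per library, such as SESA1 in Col, have the least certain differences.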
